A study of Mus musculus with 4 samples.

Results

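Fibroblasts of mouse prostate tumours made up 109 of the 3381 single cells retained from 4 libraries. A cell counted as a fibroblast when its unique molecular identifiers (UMIs, the deduplicated transcript counts) for Dcn, Col1a1, Col1a2 and Col3a1 summed to at least 20. It also had to hold under 10 UMIs of Krt8, Krt18, Krt19 and Epcam together, under 10 of Krt5 and Krt14 together, and at most 1 of Cd3d, Cd3e and Cd3g together. The TKO libraries held 46 fibroblasts in replicate 1 and 19 in replicate 2, against 18 and 26 in DKO replicates 1 and 2.

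Among their alleles, TKO tumours carried Nkx3.1CreERT2 with floxed Smad4 and Pygo2 (Smad4L/L, Pygo2L/L), and DKO tumours carried Nkx3.1CreERT2 with floxed Smad4 (Smad4L/L) and no floxed Pygo2. Both genotypes thus shared the tamoxifen-inducible Cre and every floxed allele other than that of Pygo2. Mice were 10 or 17 weeks past tamoxifen, and the labels do not tie either time to a library. Tumours were dissociated, cleared of red cells and of Annexin V-binding dead cells, tagged with 1 hashtag antibody per library and combined before loading on the 10x Genomics 3' platform. The labels do not say whether the 2 replicates of a genotype came from separate mice, so every p-value below measures the spread between libraries, which may be technical.

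Fibroblasts build the collagen-rich stroma around prostate glands and also release growth factors, Wnt modulators and chemokines that act on epithelium and leukocytes. Under tumour conditions some acquire smooth muscle actin and related contractile proteins and are then called myofibroblasts, while others carry an inflammatory secretory profile. Nkx3.1 is expressed in prostate epithelium, so the Cre is directed at epithelial cells and not at fibroblasts. Pygo2 encodes a chromatin reader that works with beta-catenin in Wnt signalling.

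The fibroblasts were deep: median UMIs per cell were 45596.5 and 32437 in TKO replicates 1 and 2, against 29083.5 and 31166 in DKO replicates 1 and 2. Summed over cells this gave 2143186 and 712040 UMIs for the TKO libraries and 675855 and 1317470 for the DKO libraries. All other retained cells had medians of 8244 to 9950 UMIs per library. No barcode was shared between libraries, and each fibroblast's own hashtag was its highest. A second hashtag exceeded 20% of the own one in 1 of 46 and 4 of 19 TKO fibroblasts, against 4 of 18 and 3 of 26 DKO fibroblasts, and in 4 of 1162, 4 of 778, 7 of 599 and 5 of 733 other cells of the same libraries. Fibroblasts also carried fewer hashtag UMIs, with medians of 144.5 to 346 for the own tag, against 618 to 1830.5 in other cells, and the part of mixed droplets in the results was not tested. The 5 members nearest the threshold had stromal sums of 21, 21, 25, 32 and 32, and the 5 highest cells below it, which met every other limit, had 19, 19, 18, 18 and 18. Another 113 such cells lay between 10 and 19, and the median stromal sum over all other retained cells was 4.0.

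The stromal genes that chose these cells were high in each library, measured as CPM, a gene's UMIs per 1000000 summed UMIs. Col1a1, a chain of type I collagen, was at 8289 and 8530 CPM in the TKO libraries, against 10580 and 9285 in the DKO libraries. Dcn, the collagen-binding proteoglycan decorin, was at 7370 and 7477 CPM in TKO, against 7404 and 4611 in DKO. Among markers outside the rule, Sparc, a collagen-binding matricellular protein, was 9.73 to 23.3 times as high per library as in the other cells, and Serping1, the C1 inhibitor, 8.56 to 22.9 times. All 12 of 12 fibroblast markers, Pdgfra and Lum included, were higher in fibroblasts than in other cells in each of the 4 libraries. Since the cells were chosen on collagen counts these ratios are descriptions, and the other cells include 70 with at least 20 stromal UMIs that the keratin or Cd3 limits left out.

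**Figure D1:**
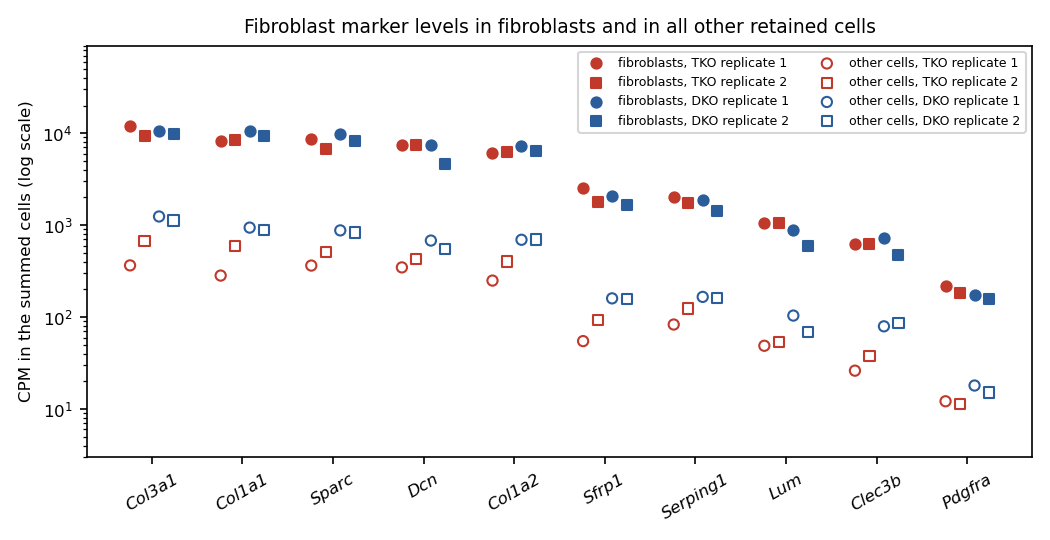
CPM in summed cells (log scale) for 10 fibroblast markers, with fibroblasts as filled and all other retained cells as open points, TKO in red and DKO in blue, circles for replicate 1 and squares for replicate 2. Every filled point lies above every open point of the same gene, and Col1a1 spans 8289 to 10580 CPM in fibroblasts.

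Genes outside the marker list gave the same ordering. Among genes of at least 100 CPM, the one with the largest smallest-of-4 ratio was Mfap4, a microfibril-associated glycoprotein, at 450 and 414 CPM in TKO fibroblasts against 429 and 481 in DKO fibroblasts, 13.7 to 17.4 times the level in other cells. Col12a1, a fibril-associated collagen, followed at 12.5 to 24.2 times, and Pcsk5, a proprotein convertase, at 12.2 to 21.8 times. Bgn (biglycan), Gpx3 (a secreted glutathione peroxidase), Mfap5, Aebp1 and Mmp2 (a gelatinase) followed, with smallest ratios between 10.6 and 11.4. Aldh1a2, a retinoic acid synthesis enzyme, was at 229 and 199 CPM in TKO, against 179 and 241 in DKO, and the ratio to other cells was 10.4 to 19.5. The groups overlapped for Mfap4, Bgn, Mfap5 and Aldh1a2.

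Marker lists of other lineages differed in how far they reached into the fibroblasts. Glial markers summed to 9.33 and 7.02 CPM in TKO fibroblasts, against 1.48 and 6.83 in DKO fibroblasts, with Cdh19 and Sox2 at 0. Luminal keratins and partners, capped by the rule, summed to 45.3 and 64.6 CPM in TKO, against 51.8 and 47.8 in DKO. Mesothelial markers summed to 203 and 180 CPM in TKO, against 207 and 116 in DKO, and Msln, which marks mesothelium, was at 1.87 and 0 CPM in TKO, against 4.44 and 1.52 in DKO.

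Pericyte markers summed to 181 and 119 CPM in TKO fibroblasts, against 198 and 350 in DKO fibroblasts, and to 20.9 to 61.6 CPM in the other cells of the libraries. Endothelial markers summed to 149 and 260 CPM in TKO, against 260 and 351 in DKO, above the other cells of the same library in all but TKO replicate 1. One cell held 84.4% of the DKO replicate 2 UMIs of Emcn, an endothelial sialomucin. Without the cells that carried at least 5 smooth muscle UMIs, the endothelial sum was 156 and 282 CPM in TKO, against 95.8 and 106 in DKO.

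Leukocyte transcripts were found in part of the cells. In 25 of the 109 fibroblasts, 10 and 4 in the TKO libraries and 2 and 9 in the DKO libraries, 8 pan-leukocyte genes took at least 0.1% of UMIs. These 25 had 4688 CPM of Cd74, the MHC class II invariant chain, against 60.0 in the other 84, and 5090 CPM of Col1a1 against 9805. Results below were therefore computed with and without them. Smooth muscle markers are described with Acta2.

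The limit on Cd3 removed 51 cells that met every other criterion, 14 and 8 in the TKO libraries and 9 and 20 in the DKO libraries. They had a median of 9 Cd3 UMIs, 684 stromal UMIs and 41998 UMIs in all, with Col1a1 at 8227 CPM and Ptprc, the common leukocyte antigen, at 158 CPM. In 26 of the 51 the pan-leukocyte genes took at least 0.1% of UMIs. Summed over these cells, Trac, a T cell receptor gene, was at 103 and 51.3 CPM in TKO, against 73.9 and 46.5 in DKO. The main comparisons are also given with them included, a choice made after seeing the data.

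Fibroblasts took 3.81% of retained cells (46 of 1208, exact 95% interval 2.80 to 5.05) and 2.38% (19 of 797, 1.44 to 3.70) in TKO replicates 1 and 2. The DKO libraries held 2.92% (18 of 617, 1.74 to 4.57) and 3.43% (26 of 759, 2.25 to 4.98). These intervals cover counting error alone. The TKO values lay on either side of both DKO values. The means were 3.10 ± 1.01% in TKO and 3.17 ± 0.359% in DKO (SD, n = 2 libraries each), a difference of -0.0755 percentage points with a two-sided exact permutation p of 1, where 2 against 2 libraries allow no p below 0.333. With the Cd3-positive cells counted as fibroblasts the difference was -1.04 points (exact p = 0.667).

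Almost every fibroblast carried Sfrp1, a secreted Wnt antagonist (chr8:23411502-23449632, mm10). At least 2 Sfrp1 UMIs were found in 45 of 46 and 19 of 19 TKO fibroblasts, against 16 of 18 and 22 of 26 DKO fibroblasts, 102 of 109 in all. In the other cells, with a median depth of 8897.5 UMIs, 3.73% passed the same minimum. Thinned to 2000 UMIs per cell, the shares were 63.0 and 47.4% in TKO, against 70.6 and 53.9% in DKO, and overlapped. Summed levels overlapped between genotypes, at 2549 and 1781 CPM in TKO and 2098 and 1649 in DKO.

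Clec3b, which encodes tetranectin and marks adventitial fibroblasts (chr9:123150946-123157432, mm10), was at 2 or more UMIs in 35 of 46 and 16 of 19 TKO fibroblasts, against 12 of 18 and 17 of 26 DKO fibroblasts. The means were 80.2 ± 5.74% in TKO and 66.0 ± 0.907% in DKO (SD, n = 2 each), and both TKO libraries lay above both DKO libraries. The exact permutation p was 0.333, the smallest this design allows, and 0.667 after Benjamini-Hochberg adjustment over the 4 subset genes. Depth moved this order: with every cell thinned to 2000 UMIs, which left out 1 DKO fibroblast, the shares were 26.1 and 36.8% in TKO, against 47.1 and 42.3% in DKO. At a minimum of 1 UMI the thinned shares overlapped, at 52.2 and 63.2% in TKO against 52.9 and 46.2% in DKO. No direction is read from the Clec3b share, and Clec3b CPM overlapped, at 622 and 631 in TKO against 732 and 474 in DKO.

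Clec3b and Sfrp1 did not split the fibroblasts into separate classes. Both were at 2 or more UMIs in 78 cells, Sfrp1 without Clec3b in 24, Clec3b without Sfrp1 in 2 and neither in 5. All 5 of the last were DKO cells, 2 in replicate 1 and 3 in replicate 2. In DKO replicates 1 and 2, fibroblasts under 2 Sfrp1 UMIs had median depths of 11550.5 and 19784.5 UMIs, against 34379 and 40850.5 in the rest. A DKO replicate 2 cell with 153 UMIs of the pericyte gene Rgs5 was among the 5. Msln reached 2 UMIs in 1 fibroblast of 109 (0.917%, exact 95% interval 0.0232 to 5.01), a DKO replicate 1 cell with 3 UMIs, against 0.978% of other cells. A subset marked by Msln was thus not detected at this depth, and the other mesothelial markers were not used to look for one.

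**Figure D2:**
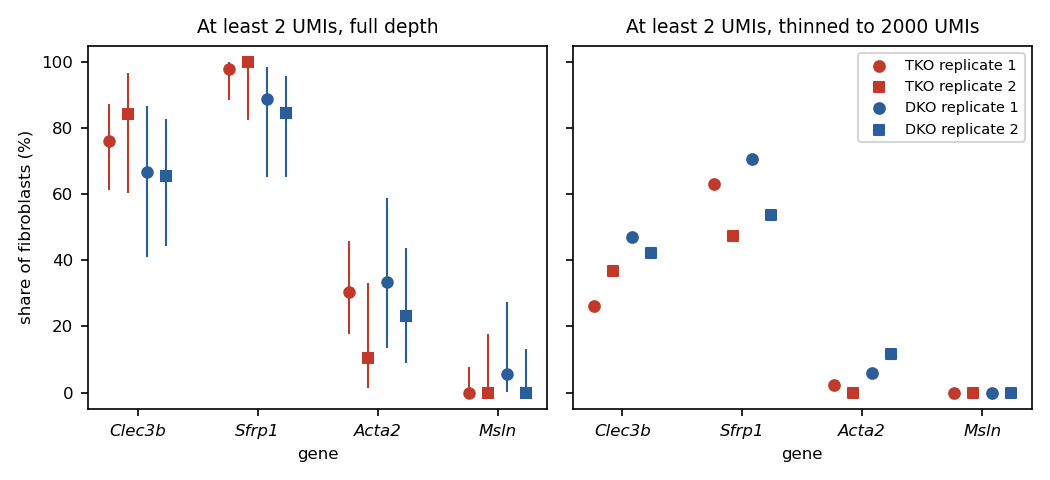
Share of fibroblasts with at least 2 UMIs of Clec3b, Sfrp1, Acta2 or Msln, at full depth on the left with exact 95% binomial intervals as bars and after thinning to 2000 UMIs on the right, 1 point per library. Clec3b shares were 76.1 and 84.2% in TKO against 66.7 and 65.4% in DKO at full depth, and after thinning, at the same minimum of 2 UMIs, both TKO shares lay below both DKO shares.

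Within each library, fibroblasts with Clec3b carried more of several matrix and chemokine genes than those without it. Dpt, which encodes dermatopontin, was at 727 and 581 CPM in Clec3b-positive TKO cells and 807 and 684 in Clec3b-positive DKO cells, against 14.1 and 39.8 CPM in Clec3b-negative TKO cells and 46.2 and 159 in Clec3b-negative DKO cells. Cxcl12, the ligand of Cxcr4, was at 190 and 478 CPM in positive TKO cells and 212 and 147 in positive DKO cells, against 24.2 and 0 in negative TKO cells and 13.2 and 24.8 in negative DKO cells. Sult1e1, an oestrogen sulfotransferase, ranged from 60.0 to 209 CPM in positive cells and from 0 to 4.0 CPM in negative cells across the 4 libraries.

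Cd34, Tnxb, Htra3, Sfrp4 and Prg4 were also higher in the positive cells of all 4 libraries. The opposite held for Timp3, a metalloproteinase inhibitor, at 128.6 to 293 CPM in positive cells against 427 to 1484 in negative cells. Sox4, a transcription factor, was at 67.0 to 80.8 CPM in positive cells against 172 to 257 in negative cells, and Pcdh7, a protocadherin, at 147 to 222 against 352 to 524. Without the leukocyte-carrying cells, Timp3 was at 131.9 to 309.9 CPM in positive cells against 435.7 to 1645.6 in negative cells. Pcdh7 was then at 170.2 to 226.6 against 316.5 to 503.9, while Sox4 was no longer among the genes with the most negative largest ratios. Over all fibroblasts, 334 of 3110 genes at or above 50 CPM were higher and 281 lower in positive cells of all 4 libraries, with no test. Without the leukocyte-carrying cells these counts were 383 and 194 of 3020 genes. Some genes share a direction in all 4 libraries by chance. The number so expected was not computed, and no programme is read from these counts. Over all fibroblasts, TKO replicate 2 had 3 negative cells. Median depth was 26062 to 46099 UMIs in positive cells against 19937 to 62703 in negative cells.

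**Figure D3:**
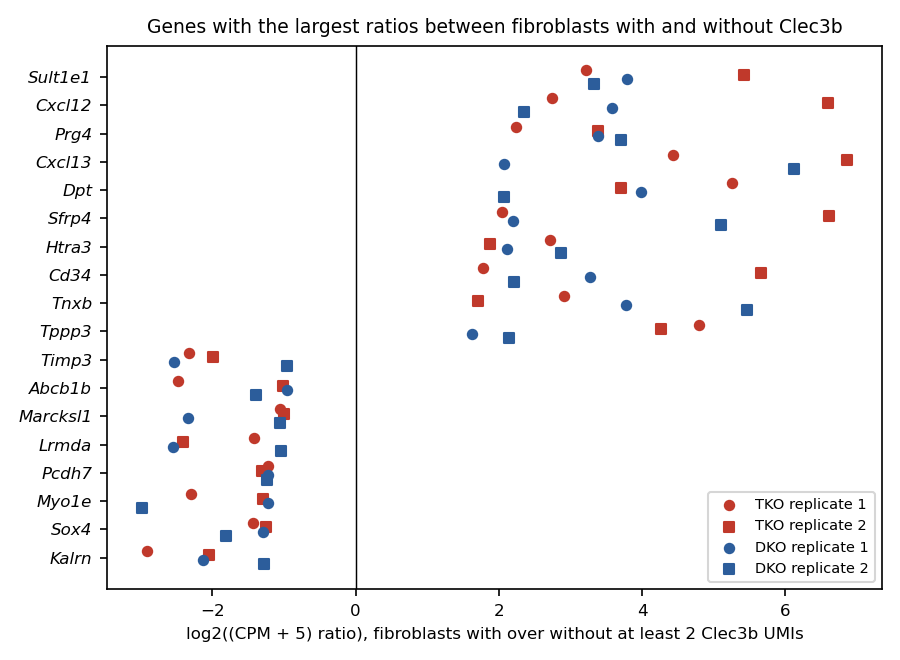
Log2 ratio of (CPM + 5) between fibroblasts with and without at least 2 Clec3b UMIs, 1 point per library, for the 10 genes with the largest smallest ratio and the 8 with the most negative largest ratio. Genes were picked by these ratios, so all points of the upper 10 lie right of 0 and all points of the lower 8 left of it.

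Acta2, which encodes smooth muscle alpha-actin (chr19:34241090-34255590, minus strand, mm10), was at 2 or more UMIs in 14 of 46 and 2 of 19 TKO fibroblasts, against 6 of 18 and 6 of 26 DKO fibroblasts. The shares averaged 20.5 ± 14.1% in TKO and 28.2 ± 7.25% in DKO (SD, n = 2 each), overlapped, and gave an exact permutation p of 0.667 (0.889 adjusted over 4). In other cells 2.14% passed. Acta2-positive fibroblasts were deeper, with a median of 63480.5 UMIs against 30560 in the rest, and thinned shares were 2.17 and 0% in TKO, against 5.88 and 11.5% in DKO. Of the 28 Acta2-positive fibroblasts 18 also carried Clec3b and 27 carried Sfrp1.

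Most Acta2 transcripts came from a few cells. At 20 or more UMIs there were 7 fibroblasts, 1 in TKO replicate 1, 2 in DKO replicate 1 and 4 in DKO replicate 2. One DKO replicate 1 cell held 319 Acta2, 685 Tagln, 71 Myh11 and 185 Des UMIs beside 627 stromal UMIs, and it supplied 77.1% of that library's Acta2 UMIs. The top DKO replicate 2 cell held 241 Acta2, 0 Myh11 and 9 Des UMIs beside 8086 stromal UMIs and 168355 UMIs in all, and supplied 61.5%. Myh11 and Des are smooth muscle genes, so the first cell carried a smooth muscle profile together with collagens. The second carried Acta2 with some Des and no Myh11, and it too counts below among the cells with at least 5 smooth muscle UMIs. A further DKO replicate 2 cell had 153 UMIs of the pericyte gene Rgs5.

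Fibroblasts with Acta2 had more Tagln, Tpm2 and Csrp1, all actin-associated, than those without it in every library. Tpm2, a tropomyosin, was at 293 and 314 CPM in positive TKO cells and 521 and 407 in positive DKO cells, against 87.7 and 79.1 in negative TKO cells and 83.4 and 45.5 in negative DKO cells. Sdc1, the heparan sulfate proteoglycan syndecan-1, was at 140.4 and 195 CPM in positive TKO cells and 226 and 291 in positive DKO cells, against 34.9 and 51.6 in negative TKO cells and 50.1 and 73.7 in negative DKO cells. Enpp2, which makes lysophosphatidic acid, was at 0 to 5.3 CPM in positive cells and 53.2 to 190.2 CPM in negative cells. Complement genes summed lower in positive cells of all 4 libraries, for example 3348 CPM against 7271 in DKO replicate 2, and TKO replicate 2 had 2 positive cells. Cd74 was also lower in the positive cells, at 18.6 to 65.0 CPM against 63.4 to 2981, while over the 84 fibroblasts under 0.1% leukocyte UMIs Cd74 was at 60.0 CPM in all. Among those 84, Enpp2 was still at 0 to 5.3 CPM in Acta2-positive cells and 55.7 to 208.0 CPM in Acta2-negative cells.

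TKO and DKO fibroblasts were compared on UMI counts summed per library with edgeR's quasi-likelihood test. No gene of 8935 tested passed a Benjamini-Hochberg adjusted p of 0.05 (0.0%), and 299 had an unadjusted p under 0.05, 146 higher in TKO (1.63%) and 153 lower (1.71%). Both TKO libraries lay above both DKO libraries for 1351 genes (15.1%) and below them for 1379 (15.4%). DESeq2 called 3 genes, all lower in TKO, which were Acta2 (adjusted p = 1.04e-07), Tagln (4.26e-07) and Hpse2 (0.0255). Leaving out 1 library made edgeR call 5 genes without TKO replicate 1, 13 without TKO replicate 2, 20 without DKO replicate 1 and 9 without DKO replicate 2, each fit assuming that the lone library of a genotype varies like the other genotype's pair. Of the genes with fold changes below, those called were Cxcl10 without TKO replicate 1, Cxcl1, Ccn3 and Hpse2 without TKO replicate 2, Tagln, Il6 and Angpt1 without DKO replicate 1, and Tagln without DKO replicate 2. The fold changes below are edgeR's on the log2 scale, TKO over DKO, with standard errors, and each has an adjusted p of 1.00 unless another is given.

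Acta2 and Tagln had the most negative fold changes of the contractile and myofibroblast list. Acta2 was at 56.5 and 16.9 CPM in TKO, against 613 and 297.5 in DKO, a log2 fold change of -3.52 ± 0.65. Tagln, which encodes the actin-binding protein transgelin, was at 112 and 95.5 CPM in TKO, against 1332 and 437 in DKO (-3.07 ± 0.58). Both TKO values lay under both DKO values for each gene, and neither difference passed edgeR's adjusted threshold. The top 2 cells held 36.25 and 83.8% of the Tagln UMIs in the TKO libraries, against 92.6 and 81.9% in the DKO libraries.

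Of the 17 tested genes of the myofibroblast and contractile list, 8 had an unadjusted p under 0.05 and were lower in TKO, 0 were higher, and 10 had both TKO libraries below both DKO libraries. Over all genes tested 1.71% had such a p and were lower, and 15.4% had both TKO libraries below. The list's median log2 fold change was -0.63, against -0.01 over all genes tested. Myl9, a myosin light chain, was at 18.7 and 14.0 CPM in TKO, against 136 and 40.2 in DKO (-2.32 ± 0.65). The top cell held 11 of 40 and 3 of 10 Myl9 UMIs in the TKO libraries, against 63 of 92 and 16 of 53 in the DKO libraries. Tnc, the matrix glycoprotein tenascin-C, was at 328 and 108 CPM in TKO, against 664 and 1044 in DKO (-1.94 ± 0.55). A Tpm2 UMI was found in 66.1% of fibroblasts and a Tnc UMI in 36.7%. The top 2 cells held 60.7 and 94.8% of Tnc UMIs in the TKO libraries, against 72.4 and 65.7% in the DKO libraries. The Myl9 level of DKO replicate 1 and the Tnc levels thus drew on few cells. Whether the 8 genes drew on the same cells was not tested. Cald1 (caldesmon) was at 580.0 and 434 CPM in TKO, against 811 and 737 in DKO (-0.59 ± 0.22), and Fn1 (fibronectin) at 1457 and 744 in TKO, against 1628 and 1712 in DKO (-0.58 ± 0.31). Actn1, Fap and Tgfb1i1 overlapped between genotypes.

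The start of Myl9 is shown because Myl9 is one of these genes and its promoter holds a CArG box, the site bound by serum response factor, printed in capitals and beginning 161 bases before the transcription start. The 300 bases come from RefSeq on GRCm38.p6, chr2:156775214-156775513, plus strand.

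Myl9: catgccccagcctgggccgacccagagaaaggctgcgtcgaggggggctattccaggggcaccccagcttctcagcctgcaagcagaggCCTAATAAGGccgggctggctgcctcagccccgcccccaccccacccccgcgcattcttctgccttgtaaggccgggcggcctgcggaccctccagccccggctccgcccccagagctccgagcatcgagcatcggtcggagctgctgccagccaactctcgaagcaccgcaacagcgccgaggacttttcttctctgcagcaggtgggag

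An exact match to the CArG box pattern on either strand was found in 1.63% of 32851 such windows, and the window of Acta2 held no exact match. Near matches, such as ccctatatgg and ccttgtttgg in the Acta2 window, were not counted, so its lack of an exact match does not show that it lacks such boxes. A match describes letters in the window and is not a measured site.

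Smooth muscle markers, Acta2 and Tagln among them, summed to 252 and 247 CPM in TKO fibroblasts, against 2677 and 816 in DKO fibroblasts. Without Acta2 and Tagln the order did not hold: Myh11, Des, Actg2 and Cnn1 summed to 47.6 and 85.7 CPM in TKO, against 649.5 and 40.2 in DKO. A single DKO replicate 1 cell held 403 UMIs of these genes. At least 5 UMIs of them were in 18 fibroblasts, 7 and 4 in TKO and 4 and 3 in DKO. Without those 18 cells Acta2 was at 24.3 and 10.7 CPM in TKO, against 201 and 111 in DKO (-2.97). Tagln then had a log2 fold change of -2.38, and the median of the myofibroblast and contractile list was -0.29. Among the DKO cells left at that step were a replicate 1 cell with 73 Acta2 UMIs and replicate 2 cells with 72 and 29. In DKO replicate 1 that cell and the one with 319 held 94.7% of all Acta2 UMIs, so the Acta2 level without the 18 cells still drew on few cells. Adding the 51 Cd3-positive cells left Acta2 at -2.98, Tagln at -1.95, Tnc at -1.93 and the list's median at -0.82.

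Part of the cytokine and chemokine list was higher in both TKO libraries. Il33, an alarmin of the interleukin-1 family (chr19:29925114-29960718, mm10), was at 413 and 565 CPM in TKO, against 221 and 150.3 in DKO (1.42 ± 0.30), and 225 of the 402 Il33 UMIs of TKO replicate 2 came from 1 cell. Cxcl1, a neutrophil chemoattractant (chr5:90891241-90893115, mm10), was at 1795 and 926 CPM in TKO, against 570 and 536 in DKO (1.32 ± 0.32). Ccl7, a monocyte chemoattractant, was at 1516 and 1143 CPM in TKO, against 864 and 704 in DKO (0.78 ± 0.22). For these 3 genes both TKO libraries were above both DKO libraries, and none passed the adjusted threshold.

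Ccl11 (eotaxin) was at 72.8 and 89.9 CPM in TKO, against 37.0 and 34.9 in DKO (1.19 ± 0.27), and Cxcl12 at 152 and 427 in TKO, against 123 and 83.5 in DKO (1.51 ± 0.55), with 63.5% of the TKO replicate 2 Cxcl12 UMIs in 1 cell. Ccl2 overlapped, at 2742 and 1254 CPM in TKO against 1395 and 965 in DKO (0.77 ± 0.40), and so did Il6, at 402 and 431 in TKO against 404 and 94.9 in DKO (0.77 ± 0.67). Ccl8 had the other direction, at 24.7 and 11.2 CPM in TKO against 105 and 36.4 in DKO. Of 17 tested genes of the inflammatory fibroblast list, 6 had an unadjusted p under 0.05 and were higher in TKO and 1 was lower. Both TKO libraries were above for 6 and below for 2, and the list's median was 0.78. Over all genes tested 1.63% had such a p and were higher and 1.71% lower, and 15.1% had both TKO libraries above and 15.4% below. The list summed to 9994 and 8985 CPM in TKO, against 5689 and 4610 in DKO.

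The Cxcl1 promoter is shown because both TKO libraries exceeded both DKO libraries for this chemokine and its window holds the motif searched. Its capitals mark a match to the NF-kappaB site that begins 71 bases before the start, in RefSeq's 300 bases on GRCm38.p6, chr5:90890995-90891294, plus strand.

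Cxcl1: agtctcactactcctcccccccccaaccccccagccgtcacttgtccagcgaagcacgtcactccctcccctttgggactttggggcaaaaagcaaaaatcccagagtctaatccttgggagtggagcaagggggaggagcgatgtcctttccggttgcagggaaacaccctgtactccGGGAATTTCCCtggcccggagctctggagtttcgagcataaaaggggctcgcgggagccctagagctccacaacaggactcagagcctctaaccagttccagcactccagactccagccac

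The NF-kappaB site, on either strand, was found in 4.51% of the same 32851 windows.

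**Figure D4:**
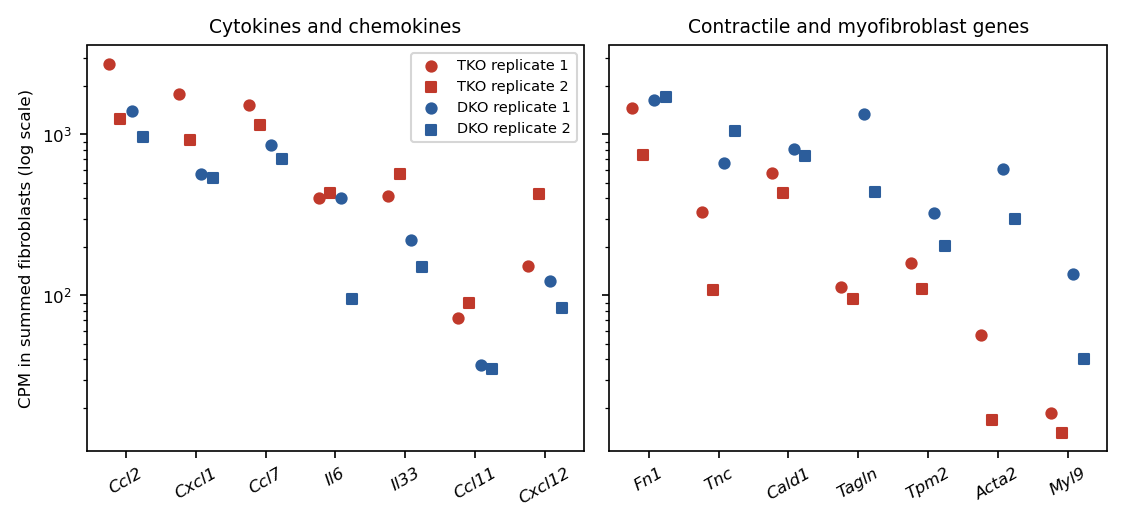
CPM in summed fibroblasts (log scale) for 7 cytokine genes and 7 contractile or myofibroblast genes, TKO in red left of DKO in blue, circles for replicate 1 and squares for replicate 2. Both TKO points lie above both DKO points for Cxcl1, Ccl7, Il33, Ccl11 and Cxcl12 and overlap them for Ccl2 and Il6, and both lie below for all 7 genes on the right.

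The cytokine difference depended on which cells counted as fibroblasts. Without the 25 leukocyte-carrying cells Il33 had a log2 fold change of 1.45, Cxcl1 1.31 and Ccl7 0.67, and the list's median was 0.84. With the 51 Cd3-positive cells added, Il33 was at 372 and 421 CPM in TKO, against 471 and 174 in DKO (0.29), so the genotypes overlapped. Cxcl1 then had a log2 fold change of 0.51, Ccl7 0.16 and Ccl2 -0.04, and the list's median was 0.36. In the Cd3-positive cells themselves Il33 was at 202 and 131 CPM in TKO, against 737 and 206 in DKO, the reverse of the order in the 109 fibroblasts.

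**Figure D5:**
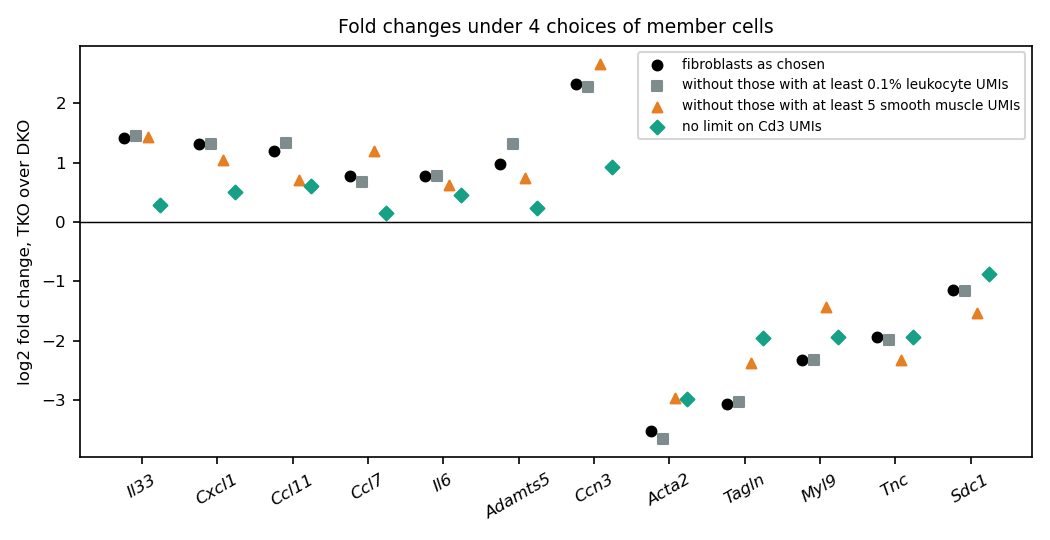
Log2 fold change, TKO over DKO, of 12 genes under 4 choices of member cells, marked by symbol and colour. Contractile genes lie below 0 under each choice, while Il33 drops to 0.29 and Ccl7 to 0.16 without the limit on Cd3 UMIs, and no value passed edgeR's adjusted threshold in the 4 fits shown.

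The adventitial fibroblast list, genes of the perivascular and capsule-type state that Clec3b marks, had 19 tested members. Of these 4 had an unadjusted p under 0.05 and were higher in TKO, 0 were lower, and 11 had both TKO libraries above both DKO libraries. Over all genes tested 1.63% had such a p and were higher, and 15.1% had both TKO libraries above. The list's median was 0.44, or 0.13 with the Cd3-positive cells added. Has1, a hyaluronan synthase, was at 379 and 705 CPM in TKO, against 271 and 119.9 in DKO (1.50 ± 0.50). Cd55, a complement decay factor, was at 182 and 121 CPM in TKO, against 97.7 and 89.6 in DKO (0.72 ± 0.28). Pi16, a peptidase inhibitor and a defining gene of that state, overlapped at 1034 and 629 CPM in TKO against 907 and 824 in DKO.

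The parenchymal list, led by Col15a1 and Penk, had 0 of 10 genes with an unadjusted p under 0.05 and a median of 0.20. Col15a1, a basement membrane zone collagen, was at 185 and 333 CPM in TKO, against 403 and 272 in DKO. In the prostate periglandular list 2 of 9 had an unadjusted p under 0.05 and were higher in TKO and 1 was lower. The shares over all genes tested were 1.63% higher and 1.71% lower. Sult1e1 was at 61.6 and 187 CPM in TKO, against 35.5 and 29.6 in DKO (1.93 ± 0.60), with 69.7% of the TKO replicate 1 and 56.4% of the TKO replicate 2 UMIs in 1 cell each. Rspo3, a secreted enhancer of Wnt signalling, was at 15.9 and 4.21 CPM in TKO, against 65.1 and 28.1 in DKO (-1.96 ± 0.65).

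Few structural matrix genes had an unadjusted p under 0.05. Over all genes tested 1.63% had such a p and were higher in TKO, and 1.71% were lower. Both TKO libraries lay above both DKO libraries for 15.1% of all genes tested and below them for 15.4%. Among 8 fibrillar collagens 0 had an unadjusted p under 0.05 and were higher in TKO and 1 was lower, with a median of -0.17. That gene was Col11a1, at 9.80 and 4.21 CPM in TKO against 59.2 and 38.7 in DKO (-2.60 ± 0.46), and its 3 UMIs in TKO replicate 2 came from 1 cell. Col1a1 had a log2 fold change of -0.22 ± 0.14. Of the 8 fibrillar collagens 7 had negative fold changes. Both TKO libraries lay below both DKO libraries for 3 of them and above for 0. The network and beaded collagens had 0 of 12 and a median of -0.34, the small leucine-rich proteoglycans 0 of 9 and a median of 0.22, and the elastic fibre genes 0 of 15 and a median of 0.11. Of the 12 network and beaded collagens 10 had negative fold changes, with both TKO libraries below for 2 and above for 0. Both TKO libraries were above for 2 and below for 1 of the proteoglycans, and likewise of the elastic fibre genes. Lum (lumican) was at 1051 and 1046 CPM in TKO, against 885 and 596 in DKO (0.52 ± 0.24). Among 17 matrix proteases and inhibitors 1 had an unadjusted p under 0.05 and was higher in TKO, 1 was lower, 3 had both TKO libraries above and 5 below, and the median was -0.05. The aggrecanase Adamts5 was at 202 and 205 CPM in TKO, against 102 and 106 in DKO (0.98 ± 0.23), and at 0.24 with the Cd3-positive cells added. Plau, the urokinase plasminogen activator, was at 22.4 and 26.7 CPM in TKO, against 66.6 and 34.2 in DKO.

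In the TGF-beta and BMP list, 1 of 16 genes had an unadjusted p under 0.05 and was higher in TKO and 2 were lower. Of all genes tested, 1.63% had such a p and were higher in TKO, and 1.71% were lower. Ltbp2, a latent TGF-beta binding protein family member, was at 85.4 and 33.7 CPM in TKO, against 149 and 183 in DKO (-1.41 ± 0.42). Tgfb1, the ligand, was at 77.0 and 57.6 CPM in TKO, against 94.7 and 184 in DKO (-1.03 ± 0.36). Ccn1, a matricellular target, was at 860.4 and 721 CPM in TKO, against 599 and 402 in DKO (0.68 ± 0.26). The 3 genes did not share a direction and the list's median was 0.03.

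Among Wnt components and targets 1 of 12 had an unadjusted p under 0.05, the negative-feedback target Nkd1, at 37.3 and 30.9 CPM in TKO against 20.7 and 7.59 in DKO (1.41 ± 0.50). Among Wnt ligands and secreted inhibitors 2 of 14 did, both lower in TKO. These were Rspo3 and the antagonist Frzb, at 34.5 and 36.5 CPM in TKO against 101 and 60.7 in DKO (-1.15 ± 0.33). The ligand Wnt2 was at 144 and 112 CPM in TKO, against 111 and 87.3 in DKO. The medians were 0.25 for components and -0.02 for ligands and inhibitors. Of all genes tested, 1.63% had an unadjusted p under 0.05 and were higher in TKO, and 1.71% were lower.

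For growth factors 1 of 16 genes had an unadjusted p under 0.05, Bmp2, at 14.5 and 39.3 CPM in TKO against 7.40 and 4.55 in DKO (2.15 ± 0.67). The share of all genes tested with such a p was 1.63% higher in TKO and 1.71% lower. Igf1, which acts on epithelium through its receptor, was at 783 and 1014 CPM in TKO, against 448 and 783 in DKO (0.56 ± 0.31). Of 5 IGF binding protein genes Igfbp5 was at 795 and 1609 CPM in TKO, against 626 and 257 in DKO (1.47 ± 0.56), the only one with an unadjusted p under 0.05. Igfbp4 was at 3849 and 2997 CPM in TKO, against 2107 and 2869 in DKO (0.48 ± 0.21), and Igfbp7 at 3053 and 2163 in TKO, against 3828 and 3518 in DKO (-0.48 ± 0.20). The groups were apart for each of these 3 genes, Igfbp7 being the one lower in TKO, and none passed the adjusted threshold.

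Complement genes had 1 of 13 with an unadjusted p under 0.05 in each direction, against 1.63% of all genes tested higher and 1.71% lower. C3 overlapped at 2796 and 3100 CPM in TKO against 3073 and 1861 in DKO. Antigen presentation had 0 of 11, and its summed level, 4815 and 4837 CPM in TKO against 3302 and 6466 in DKO, was 3162 and 2930 CPM in TKO against 3291 and 2742 in DKO without the leukocyte-carrying cells. Of 20 interferon genes 1 was past an unadjusted p of 0.05, Ifi27l2a, at 1334 and 897 CPM in TKO against 706 and 726 in DKO, and Cxcl10 was at 118 and 893 in TKO against 87.3 and 102.5 in DKO (2.43 ± 0.99), or 0.04 on the log2 scale without the smooth muscle-marked cells. Of 14 immediate early and heat shock genes, which dissociation is known to induce, 3 were past it and higher in TKO and 1 was lower. Fos was at 2461 and 3894 CPM in TKO, against 1861 and 2109 in DKO (0.70 ± 0.25), and Junb at 1871 and 2161 in TKO, against 1323 and 1462 in DKO (0.55 ± 0.18). Their part in the chemokine values was not tested. None of 12 cell cycle genes and none of 15 hypoxia and glycolysis genes was past it, and Mki67, a proliferation antigen, had a UMI in 5 and 3 TKO fibroblasts and in 1 and 3 DKO fibroblasts.

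Across all genes of at least 20 CPM the smallest unadjusted p-values belonged to genes of mixed function. Lsmem1, a membrane protein gene, was at 117 and 125 CPM in TKO, against 40.0 and 47.1 in DKO (1.48 ± 0.25). Hpse2, a heparanase-like protein, was at 9.33 and 23.9 CPM in TKO, against 85.8 and 105.5 in DKO (-2.67 ± 0.46). Ccn3, a matricellular protein, was at 105 and 64.6 CPM in TKO, against 23.7 and 12.9 in DKO (2.32 ± 0.41), and at 0.93 with the Cd3-positive cells added. Angpt1, the Tie2 ligand, was at 12.6 and 14.0 CPM in TKO, against 44.4 and 85.8 in DKO (-2.31 ± 0.41). Groups were apart for all 4, and the other 6 of the 10 were Col11a1, Yod1, Pde10a, Pde1c, P4ha3 and Plcl1.

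Whether the TKO and DKO difference in fibroblasts departed from that in the other cells of the same libraries was tested as an interaction with library as a block. No gene of 14622 passed the adjusted threshold in edgeR (0.0%), and 912 had an unadjusted p under 0.05. The smallest p belonged to Ccn3, whose level in other cells was 1.54 and 2.35 CPM in TKO against 13.3 and 9.07 in DKO, opposite to the order in fibroblasts (interaction 4.85 ± 0.53, adjusted p = 0.140). Those other cells include the Cd3-positive stromal cells, 14 and 8 in the TKO libraries and 9 and 20 in the DKO libraries. Col1a1 in the other cells was at 283 and 591 CPM in TKO, against 941 and 890 in DKO. The part of such left-out stromal cells in the interaction was not tested. Leaving out 1 library gave 0 calls without TKO replicate 1, 3 without TKO replicate 2, 705 without DKO replicate 1 and 226 without DKO replicate 2.

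Pygo2 and Smad4 transcripts were both detected in fibroblasts. Pygo2 was at 13.1 and 16.9 CPM in TKO, against 8.88 and 7.59 in DKO (0.86 ± 0.46). Smad4 was at 70.5 and 74.4 in TKO, against 65.1 and 66.0 in DKO (0.16 ± 0.23). Counts at the 3' end need not lie in the floxed exons, so these values check neither recombination nor the labels.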

How the data were processed

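The authors deposited UMI counts per gene and cell for 4 hashtag-separated libraries, made with Cell Ranger 7.0.0 and STAR on mm10 per the submitters' processing notes. Counts were used as deposited. Cells were kept from 200 detected genes upward and with mitochondrial UMIs no higher than 20%, and no doublet caller was run. For each library the fibroblasts' counts were added up, and the 4 sums entered edgeR 4.0.16 (glmQLFit robust, TMM, filterByExpr) in R 4.3.3 with Benjamini-Hochberg adjustment over all genes tested. DESeq2 1.42.0 was the alternative. Ratios between cell sets added 5 CPM. Shares were tested with exact permutation tests in scipy 1.17.1. The scripts were tested on simulated data. Named genes were the rule and marker genes, the allele genes, up to 4 smallest-p and 3 highest genes per list, the 10 smallest p overall (at least 20 CPM), the 5 smallest interaction p and the 8 largest ratios per subset gene (at least 50 CPM). Actn1, Aebp1, Aldh1a2, Ccl8, Col15a1, Enpp2, Fap, Il6, Mfap4, Pcdh7, Pcsk5, Sox4, Tgfb1i1, Timp3, Tnxb and the marker genes Cdh19, Des, Myh11, Ptprc, Rgs5, Sox2 and Trac were chosen after their values were seen. The members, lists and tests were chosen with earlier results of these data known. The symbols Ccl19, Aldoa and Ero1a were not matched to a single gene and were not used, and 1 allele and some marker values are not reported here. Sequences are RefSeq's.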

Additional observations from a re-analysis of the deposited data

How the results depend on the processing

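With 2 libraries per genotype and 109 cells, no exact permutation test of a share could go below p = 0.333, and single cells decided several gene levels. The difference in fibroblast share, -0.0755 percentage points, turned to 0.0332 at a stromal sum of at least 40 and to 0.0146 without the 25 leukocyte-carrying cells, and ranged from -0.788 to 0.637 when 1 library was left out. The Clec3b share difference of 14.1 points became -13.2 and the Sfrp1 difference of 12.2 became -7.01 after thinning to 2000 UMIs. The Msln difference of -2.78 became 0.0 at 5 UMIs, after thinning and without cells of 3 or more leukocyte UMIs, and ranged from -5.56 to 0.0 without 1 library. The Acta2 share difference of -7.73 ranged from -17.7 to 2.23 without 1 library. The count of 0 genes became 3 with DESeq2, 135 with no filter on low counts (59 higher and 76 lower in TKO), 1 with the replicate block and 5 to 20 without 1 library. The shared replicate numbers give 2 pairs and no label says that they mark a shared mouse or day, so the block is given here alone. The gene it called was Acta2, lower in TKO (edgeR adjusted p = 0.0221). The interaction count of 0 ranged from 0 to 705 without 1 library. RLE scaling, a stromal sum of at least 40, both leukocyte limits, leaving out smooth muscle-marked cells and lifting the Cd3 limit each kept the count at 0. Among the alternative fold changes computed for 42 of the named genes, 502 kept their direction and stayed short of the adjusted threshold, 31 kept it and passed, and 4 changed sign: Ccl2 to -0.04 and Smad4 to -0.01 without the Cd3 limit, and Smad4 to -0.12 and Ccn1 to -0.05 without cells of 3 or more leukocyte UMIs. Genes were named partly by their p-values in these same libraries. RLE scaling, DESeq2, no filter and the replicate block also refit the same counts, so kept directions are no independent support. Named genes outside these 42 with fold changes near 0 changed sign too, for example Sfrp1, at 0.23 with the limit and -0.04 without the Cd3 limit. The cause was not tested for any of these.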
